A study of Mus musculus with 6 samples.

Results

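The 10 myosin light chain genes were examined in C2C12 cells before and after differentiation. Members were taken by gene symbol from the deposited gene counts (*Myl1*, *Myl2*, *Myl3*, *Myl4*, *Myl6*, *Myl6b*, *Myl9*, *Myl12a*, *Myl12b* and *Mylpf*), and each matched 1 of the 54525 gene rows. C2C12 is an established mouse myoblast line, labelled WT and untreated, that fuses into multinucleated myotubes in low serum. Cells were sampled as proliferating myoblasts in fetal bovine serum at day 0 (D0, 3 libraries) and after 5 days in horse serum at a lower concentration (D5, 3 libraries), and total RNA was sequenced. C2C12 is 1 clonal line, such cultures usually keep unfused cells beside the myotubes, and the 3 libraries of a group are cultures of that line, so p-values measure the spread between cultures only.

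Each myosin molecule has heavy chains whose heads carry 1 essential and 1 regulatory light chain on the lever arm. Striated muscle uses *Myl1*, *Myl3* and *Myl4* as essential chains and *Mylpf* and *Myl2* as regulatory chains. Nonmuscle and smooth muscle myosin II uses *Myl6* or *Myl6b* with *Myl9*, *Myl12a* or *Myl12b*. *Myl6b* is also an essential chain of slow skeletal muscle, and it was counted here with the smooth muscle and nonmuscle members in every share. Phosphorylation of the regulatory chain switches nonmuscle and smooth muscle myosin on, and in skeletal muscle it modulates force. *Myl1* encodes the fast skeletal essential chains MLC1f and MLC3f, and these counts do not separate them. The question was which light chains the myotube exchanges for those of the myoblast.

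Gene counts came to 36555048 to 40895840 per D0 library and 25449759 to 25811300 per D5 library. ERCC spike-in RNA took 0.86, 0.83 and 0.73% of counts in the D0 libraries and 1.20, 0.72 and 2.09% in the D5 libraries. Myotube markers rose in D5 (6 of 6, among them *Myog* and *Ckm*), and proliferation markers fell (5 of 5). Of the myoblast markers, 3 of 4 fell and *Des* rose. Fibroblast markers also rose (4 of 4, summed 1.33 to 1.64 CPM at D0 and 279.9 to 325 CPM at D5), and their part in the results was not tested. The labels give the same myoblast cell type for every library, and the markers separated D0 from D5. In these bulk cultures fewer cells of a type and less RNA per cell cannot be told apart.

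Promoters of the genes on which the results turn are shown first, because the members moved in opposite directions. They are RefSeq windows of build GRCm38.p6 on the gene's strand, 5′ to 3′, limited to bases before the start site that lie outside annotated exons. Capitals mark an E-box (CANNTG, the site of MyoD family factors) or a CArG box (the site of serum response factor), both strands searched.
Mylpf, chr7:127211358-127211607, + strand: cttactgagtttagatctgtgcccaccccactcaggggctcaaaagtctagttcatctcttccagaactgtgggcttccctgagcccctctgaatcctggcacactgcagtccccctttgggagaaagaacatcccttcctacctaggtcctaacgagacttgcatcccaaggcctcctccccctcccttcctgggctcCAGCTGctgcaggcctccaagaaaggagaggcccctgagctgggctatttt
Myl1, chr1:66945144-66945290, - strand: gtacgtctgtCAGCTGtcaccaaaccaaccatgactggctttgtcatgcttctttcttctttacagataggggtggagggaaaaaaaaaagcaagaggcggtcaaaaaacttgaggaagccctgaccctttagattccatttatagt
Myl6b, chr10:128498686-128498935, - strand: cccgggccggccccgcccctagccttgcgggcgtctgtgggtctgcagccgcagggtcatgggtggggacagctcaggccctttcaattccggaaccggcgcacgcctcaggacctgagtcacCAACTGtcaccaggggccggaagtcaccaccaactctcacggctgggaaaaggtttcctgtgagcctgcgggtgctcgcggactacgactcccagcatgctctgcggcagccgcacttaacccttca
Myl9, chr2:156775214-156775419, + strand: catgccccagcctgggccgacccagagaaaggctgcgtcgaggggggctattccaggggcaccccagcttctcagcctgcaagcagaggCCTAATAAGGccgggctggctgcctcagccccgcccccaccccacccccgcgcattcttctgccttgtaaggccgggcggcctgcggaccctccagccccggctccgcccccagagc

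The E-box form CAGCTG began 51 bases before the start in *Mylpf* and 224 bases before it in *Myl1*. *Myl12a*, which fell, also held a CAGCTG, 104 bases before its start. The windows listed for *Myl2* lie upstream of the gene as annotated here and are not described. A CANNTG was found for 6 of the other 9 members, not for *Myl4*, *Myl9* or *Myl12b*. Motifs were searched in the whole window of 250 bases, annotated exons included, so the matches in *Myl12a* and *Myl6* named here are outside any stretch printed. Among all 32851 RefSeq windows of 250 bases, 66.2% held CANNTG, so a match to it is common. CAGCTG was in 13% of them, so a match to it is less common but not rare. *Myl6b* had a single CAACTG 127 bases before its start. A CArG box lay 161 bases before the start of *Myl9*, and the window of *Myl3* held one too, against 1.47% of all windows. *Myl6* has 2 windows, and only the second, which lies within annotated exons, held a CArG box. *Myl4*, which rose, had none of these motifs in its window. No window of these 9 members held the MEF2 motif, found in 2.92% of all windows. A match here is a run of letters and was not tested as a binding site.

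Of the 10 members, 9 passed the filter on low counts and were tested. In D5 against D0, 5 were higher (*Mylpf*, *Myl1*, *Myl4*, *Myl2* and *Myl6b*) and 4 were lower (*Myl6*, *Myl9*, *Myl12a* and *Myl12b*), by edgeR's quasi-likelihood test with Benjamini-Hochberg adjusted p under 0.05 over 16290 genes. The comparison moved most of the transcriptome, with 42.2% of all genes tested called higher and 40.8% called lower, so being called is the common state of a gene here. The median log2 fold change was 3.99 over the 9 members tested and 0.00 over all genes tested. All 4 striated members that were tested rose, with a median of 8.94, whereas of the 5 smooth muscle and nonmuscle members 4 fell and *Myl6b* rose.

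**Figure D1:**
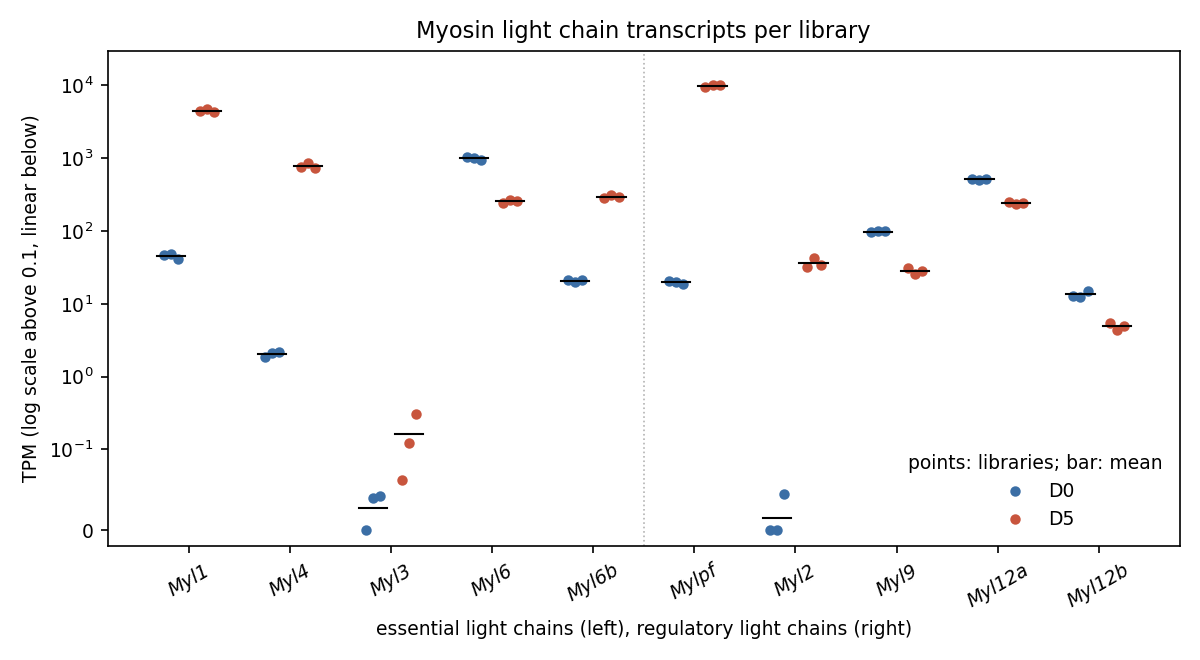
TPM (transcripts per 1000000, from reads per exonic length) of each light chain gene in the 3 D0 and 3 D5 libraries, with the group mean as a bar, on an axis that is logarithmic above 0.1 and linear below it. *Mylpf* and *Myl1* reached 9972 and 4511 TPM at D5, and *Myl3* stayed below 1 TPM in every library.

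*Mylpf* (chr7:127208890-127214298, + strand, GRCm38), the fast skeletal regulatory chain, read 6.46, 6.11 and 5.59 CPM (counts per 1000000 after TMM scaling) in the D0 libraries. In the D5 libraries it read 3187, 3564 and 3504 CPM. The groups lay far apart, and its mean was 565-fold higher at D5 (log2 fold change 9.14 ± 0.06 SE, n = 3 per group, edgeR adjusted p = 5e-40). Per length it was the most abundant member at D5, at 9972 ± 397 TPM (SD, n = 3), which ranked 5 among all genes with a length.

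*Myl1* (chr1:66924295-66945404, - strand), the fast skeletal essential chain, read 28.8, 29.0 and 24.2 CPM at D0. At D5 it read 2911, 3215 and 2931 CPM, 111-fold higher in the mean. The difference was 6.79 ± 0.06 on the log2 scale (SE, n = 3 per group, edgeR adjusted p = 1e-37). Its D0 level, 45.5 ± 4.02 TPM (SD, n = 3), was the highest of the striated members in myoblasts. At D5 it stood at 4511 ± 194 TPM and ranked 15 among all genes.

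Part of the *Myl1* signal could be shared with *Mylf-ps*, a processed pseudogene on chr12:101221997-101222417 that was picked after its values were seen. It matches *Myl1* over 242 stretches of 50 bases, 11.7% of those in the gene. *Mylf-ps* itself read 4.62, 3.71 and 4.54 CPM in myoblasts and 532, 330 and 442 CPM in myotubes, a rise of 6.67 ± 0.13 on the log2 scale (edgeR adjusted p = 1.2e-28). How reads were divided between the 2 rows is uncertain. With the pseudogene's reads added to *Myl1*, an alternative chosen after seeing the data, the striated share of essential TPM described below was 5.08 ± 0.12% at D0 and 91.5 ± 0.43% at D5 (SD, n = 3), against 4.44 ± 0.21% and 90.5 ± 0.35% without them.

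*Myl4* (chr11:104550663-104595753, + strand), the atrial essential chain that skeletal muscle also makes in the embryo, read 2.51, 2.83 and 2.88 CPM at D0. It read 1104, 1288 and 1115 CPM at D5. The rise was 427-fold (log2 fold change 8.73 ± 0.07 SE, n = 3 per group, edgeR adjusted p = 3.9e-38), larger on this scale than that of *Myl1*. Its share of striated essential TPM went from 4.33 ± 0.66% to 14.7 ± 0.39% (SD, n = 3), with no overlap between groups (exact permutation test, two-sided p = 0.1, the smallest that 3 against 3 libraries can give). By coding length the share was 8.96 ± 1.30% and 27.4 ± 0.61%, so its size rested on the length used and its direction did not.

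*Myl2* (chr5:122100951-122113472, + strand), the regulatory chain of slow skeletal fibres and the ventricle, had 0, 0 and 1 counts at D0, at or under the limit of 3 counts taken as undetected. At D5 it had 501, 677 and 538 counts. Against a floor of 3 counts per D0 library the D5 mean of 23.0 ± 3.95 CPM was at least 306-fold higher (edgeR adjusted p = 1.2e-25). It remained a minor member, with 0.364 ± 0.05% of striated regulatory TPM at D5 (SD, n = 3), or 0.640 ± 0.08% by coding length. Of the 6 cardiac markers, *Nppa*, *Myl7* and *Ryr2* had at most 4 counts in any library, *Myh6* and *Tnni3* (0.59 ± 0.13 to 1.78 ± 0.16 CPM) rose and *Nppb* fell (1.51 ± 0.27 to 0.17 ± 0.10 CPM, SD, n = 3). Their summed level was 1.95 to 2.45 CPM at D0, most of it *Nppb*, and 25.4 to 31.4 CPM at D5, most of it *Myh6*, and their part in the *Myl2* result was not tested.

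*Myl3* (chr9:110741861-110769798, + strand), the slow skeletal and ventricular essential chain, had 0, 1 and 1 counts at D0 and 1, 2 and 5 counts at D5. It did not pass the filter and was not tested. Of these 2 chains of slow fibres and the ventricle, *Myl2* was detected in every D5 library and *Myl3* passed the limit of 3 counts in 1 of them. The light chains outside the member list were also near 0. *Myl7*, the atrial regulatory chain, had 1 count in all, and *Myl10* had 0 to 12 counts per library.

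*Myl6* (chr10:128490860-128494145, - strand), the essential chain of nonmuscle and smooth muscle myosin, was the most abundant member in myoblasts. It read 972, 933 and 867 CPM at D0 and 248, 279 and 271 CPM at D5. The D5 mean was 28.8% of the D0 mean (log2 fold change -1.80 ± 0.04 SE, n = 3 per group, edgeR adjusted p = 2.3e-26). Its TPM of 1002 ± 43.3 at D0 ranked 96 among all genes, and at D5 it was 259 ± 10.9 (SD, n = 3). These TPM values use 3187 exonic bases, nearly the whole gene, against a coding length of 474 bases, and the order of *Myl6* among the members at D5 rests on which length is used. Processed pseudogenes matched 8.38% of its stretches of 50 bases, and the best matching one, *Gm5526*, had 51 to 55 counts per D0 library.

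*Myl6b* (chr10:128494157-128498685, - strand) lies on the same strand as *Myl6*, with 11 bases and no gene between them, and is an essential chain of nonmuscle and slow skeletal myosin. It moved the opposite way. It read 11.5, 10.6 and 11.3 CPM at D0 and 164, 190 and 178 CPM at D5, 15.9-fold higher (log2 fold change 3.99 ± 0.05 SE, n = 3 per group, edgeR adjusted p = 1.1e-32). The coding sequences of the neighbours were 55.8% identical, with a longest common run of 46 bases. *Myl6b* made up 2.04 ± 0.15% of the TPM of the pair at D0 and 53.4 ± 0.50% at D5 (SD, n = 3). By coding length its D5 share was 33.7 ± 0.45%, so which of the neighbours was the more abundant at D5 turned with the length used. Its rise within the pair did not, as every D5 library lay above every D0 library under each length.

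*Myl9* (chr2:156775420-156781658, + strand), the regulatory chain best known from smooth muscle, read 32.6, 33.2 and 32.9 CPM at D0. At D5 it read 11.2, 9.86 and 10.6 CPM, 32.1% of the D0 mean (log2 fold change -1.64 ± 0.06 SE, n = 3 per group, edgeR adjusted p = 2.4e-21). Of the smooth muscle markers, 3 of the 5 tested were called lower (*Acta2*, *Tagln* and *Cnn1*, smooth muscle actin and actin-binding proteins), against 40.8% of all genes, and none higher. *Smtn* (126 ± 4.36 and 131 ± 1.06 CPM at D0 and D5) and *Lmod1* (10.8 ± 0.93 and 9.74 ± 0.38 CPM) were not called (SD, n = 3). Their summed level, over 6 genes, was 3641 to 3781 CPM at D0 and 1135 to 1267 CPM at D5. *Myh11*, which defines smooth muscle cells, had 2 to 8 counts in every library. The part of any change in cell makeup in the *Myl9* result was not tested.

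*Myl12a* (chr17:70993656-71002878, - strand), the main nonmuscle regulatory chain here, read 519, 483 and 498 CPM at D0 and 269, 260 and 263 CPM at D5. Its fall was the mildest of the members called lower, to 52.8% of D0 (log2 fold change -0.92 ± 0.03 SE, n = 3 per group, edgeR adjusted p = 3e-21). *Myl12b* (chr17:70973133-70990890, - strand), 2765 bases away on the same strand, read 10.4, 10.01 and 11.8 CPM at D0 and 4.78, 3.98 and 4.38 CPM at D5. That was 40.7% of D0 (log2 fold change -1.30 ± 0.10 SE, n = 3 per group, edgeR adjusted p = 3.7e-13). Neither gene had a D5 library that reached its lowest D0 library.

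Levels of this pair are uncertain for a reason of annotation. Their coding sequences were 96.5% identical, and the run below, the last 102 bases of the *Myl12b* coding sequence before its stop codon (bases 415 to 516), is shown because it is the same in both genes.
Myl12b and Myl12a, 102 bases: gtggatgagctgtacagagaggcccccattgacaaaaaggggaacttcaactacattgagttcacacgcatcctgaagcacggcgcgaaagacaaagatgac
A further gene, *AC154187.2* in the count files and annotated under the name *Myl12b* in GENCODE M21, spans chr17:70974119-71002208 across both. It overlaps 26.7% of the exonic bases of *Myl12b* and 13.8% of those of *Myl12a* on the same strand, and it had 28 to 34 counts per D0 library and 6 to 7 per D5 library. Exons of *Myom1*, on the opposite strand, cover 6.16% of *Myl12a*. *Myom1*, a sarcomere M-band gene, rose from 16.6 ± 0.71 to 336 ± 8.18 CPM (SD, n = 3), and whether strand was used in counting is not given in the sources used here. *Myl9* was 85.7% and 86.4% identical to *Myl12a* and *Myl12b*, and no stretch of 50 bases was shared.

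Ordered by TPM, the myoblast members ran *Myl6*, *Myl12a* (514 ± 13.6), *Myl9* (97.9 ± 2.09), *Myl1*, *Myl6b* (20.8 ± 0.88), *Mylpf* (19.7 ± 1.14), *Myl12b* (13.4 ± 1.33), *Myl4* (2.04 ± 0.18), *Myl3* and *Myl2* (SD, n = 3). *Myl6b* and *Mylpf* overlapped at D0, as did *Myl3* and *Myl2*. The myotube order was *Mylpf*, *Myl1*, *Myl4* (781 ± 57.7), *Myl6b* (297 ± 16.4), *Myl6*, *Myl12a* (244 ± 9.47), *Myl2* (36.5 ± 5.65), *Myl9* (28.2 ± 2.38), *Myl12b* (4.91 ± 0.55) and *Myl3*. *Myl6* and *Myl12a* overlapped at D5. Both orders use exonic length and rest on it. By CPM, which takes no account of length, *Myl12b* (10.8 ± 0.94) stood above *Mylpf* (6.05 ± 0.44) at D0. At D5 *Myl12a* (264 ± 4.91 CPM) stood above *Myl6b* (177 ± 13.2 CPM, SD, n = 3). Summed over the 5 striated members, TPM went from 67.3 ± 4.92 to 15301 ± 551, whereas the other 5 members went from 1649 ± 41.3 to 832 ± 14.7 (SD, n = 3).

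Shares within a library do not depend on how libraries are scaled. Striated members made up 4.43, 4.66 and 4.24% of essential light chain TPM at D0 and 90.8, 90.6 and 90.1% at D5. Of regulatory light chain TPM they made up 3.16, 3.17 and 2.83% at D0 and 97.1, 97.5 and 97.4% at D5. The values rested on the length used. Over the lengths tried, D0 means were 2.63 to 7.69% for the essential and 1.10 to 3.05% for the regulatory share. The D5 means were 89.7 to 93.2% and 92.5 to 97.3%. Both classes changed from nearly all nonmuscle to nearly all striated transcripts. By exonic length the differences were 86.1 and 94.2 percentage points (exact permutation test, two-sided p = 0.1 for each, the smallest possible).

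**Figure D2:**
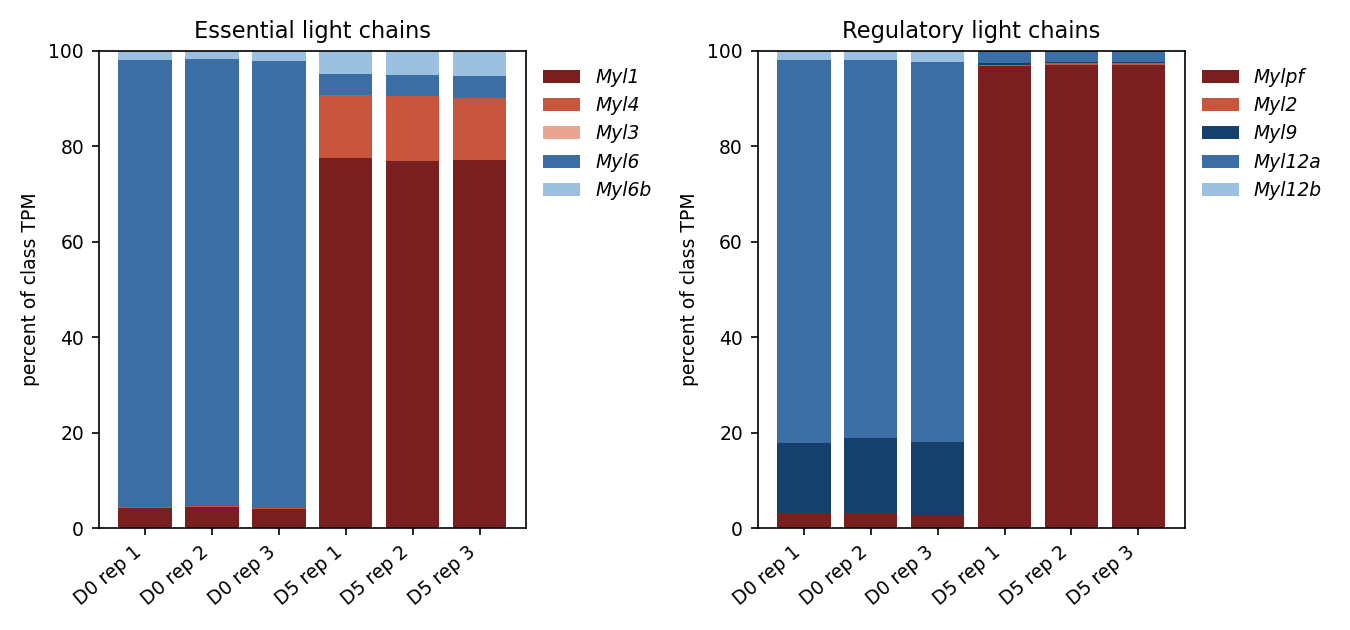
Percent of essential (left) and regulatory (right) light chain TPM taken by each gene, as stacked bars that sum to 100% in each of the 3 D0 and 3 D5 libraries. *Myl6* holds 93.6% of the essential class at D0 and 4.43% at D5, and the red striated segments reach 90.5% and 97.3% at D5.

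The 2 classes did not rise by the same factor. Essential over regulatory TPM was 1.69, 1.72 and 1.56 at D0 and 0.583, 0.584 and 0.540 at D5 (exact permutation test, two-sided p = 0.1). For the striated members alone the ratio went from 2.41 ± 0.11 to 0.529 ± 0.03 (SD, n = 3), and by coding length from 4.45 ± 0.19 to 1.09 ± 0.05. By coding length, a choice made after seeing the data, the ratio of all members was 1.90 ± 0.10 at D0 and 1.12 ± 0.05 at D5. The fall of the ratio held under every length tried, but its side of 1 at D5 did not. For the smooth muscle and nonmuscle members the ratio was 1.63 ± 0.08 at D0 and 2.01 ± 0.19 at D5 by exonic length but 1.87 ± 0.10 and 1.57 ± 0.14 by coding length, so its direction rested on the length used.

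**Figure D3:**
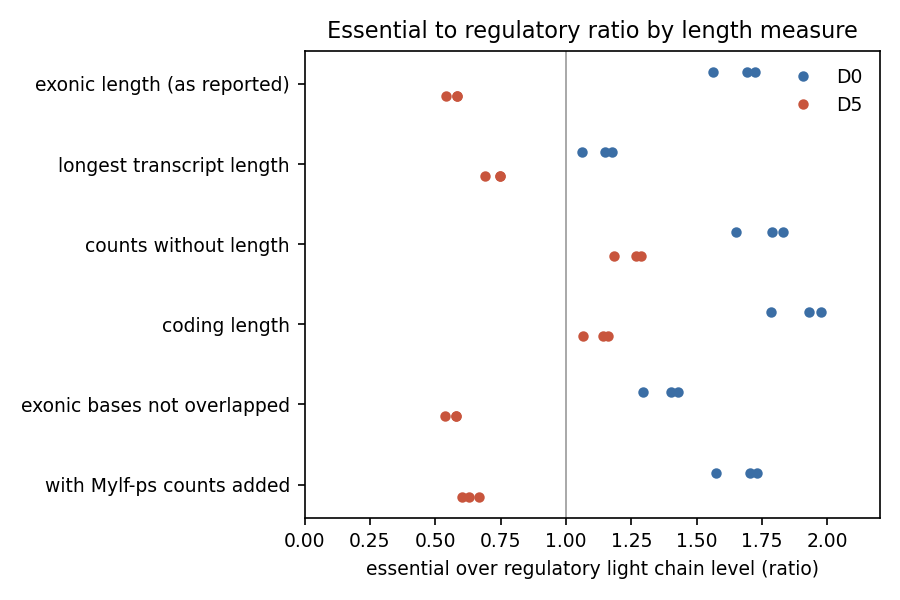
Ratio of summed essential to summed regulatory light chain levels in each library (points, 3 D0 and 3 D5), for each measure of gene length, with a line at 1. D5 points lie left of D0 points in every row, around 0.569 by exonic length and around 1.12 by coding length.

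Heavy chains that carry these light chains changed in the same comparison. Of 12 heavy chain genes, 11 were tested, 9 were higher and 2 were lower, with a median log2 fold change of 9.72 against 0.00 over all genes. All 8 sarcomeric genes were higher. *Myh3*, the embryonic heavy chain, was the most abundant of them at D5 with 2406 ± 62.3 TPM (log2 fold change 11.44 ± 0.07 SE), followed by the fast chains *Myh1* at 1813 ± 52.6 TPM (9.72 ± 0.06) and *Myh4* at 464 ± 11.9 TPM (14.02 ± 0.09). The slow and cardiac chain *Myh7* reached 95.7 ± 10.6 TPM (10.92 ± 0.13). Lower levels were found for the neonatal *Myh8* (45.6 ± 2.86 TPM, at least 2300-fold higher than a floor of 3 counts), *Myh2* (38.9 ± 4.13 TPM, 7.85 ± 0.12), *Myh7b* (18.8 ± 1.87 TPM, 8.99 ± 0.16) and *Myh6* (12.3 ± 1.19 TPM, at least 355-fold higher). These genes are near-identical copies in part, and how their reads were split was not measured.

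Of the 4 smooth muscle and nonmuscle heavy chains, 3 were tested, 2 were lower and 1 was higher, against 40.8% of all genes tested called lower and 42.2% called higher. *Myh9*, the main nonmuscle IIA heavy chain, went from 1001 ± 17.4 to 437 ± 15.0 TPM (SD, n = 3; log2 fold change -1.04 ± 0.03 SE, edgeR adjusted p = 2.5e-22). *Myh10*, the IIB chain, fell by 1.67 ± 0.04 on the log2 scale (edgeR adjusted p = 3.7e-27). *Myh14*, the IIC chain, rose by 5.05 ± 0.20 but stayed at 2.88 ± 0.28 TPM at D5, and *Myh11* was not tested. Summed over all 8 genes, sarcomeric heavy chain TPM was 4893 ± 101 at D5 and 3.68 ± 0.34 at D0.

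**Figure D4:**
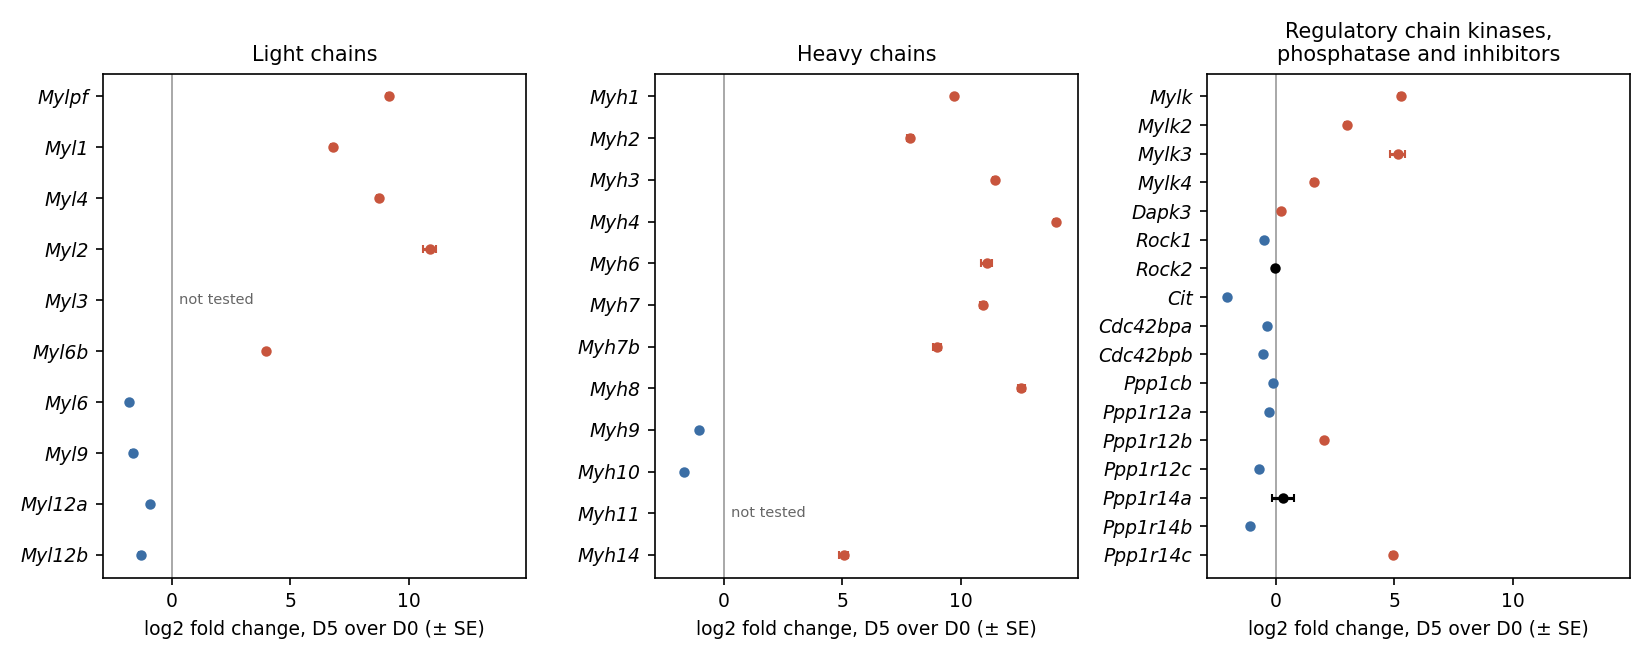
Log2 fold change of D5 over D0 with its standard error for the light chains, the heavy chains and the genes of regulatory chain phosphorylation, red where higher, blue where lower and black where not called. Light and heavy chains of striated muscle lie right of 0, from 6.79 to 14.02, and *Myl6*, *Myl9*, *Myl12a*, *Myl12b*, *Myh9* and *Myh10* lie left of it.

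Genes that set the phosphorylation of regulatory light chains went both ways. Of 17 genes tested, 7 were higher and 8 lower, with a median log2 fold change of -0.04, close to the shares over all genes tested. The calls rested on the scaling, with 5 higher and 2 lower under spike-in scaling and 6 higher and 10 lower without scaling. The setting without scaling left the difference in library depth uncorrected, and spike-in shares differed between the D5 libraries (1.20, 0.72 and 2.09%). *Dapk3* changed direction, from a log2 fold change of 0.23 ± 0.04 (SE, called higher) with TMM to -0.32 with spike-ins, not called. Without scaling *Dapk3* was called lower (-0.45). The 6 genes that lost a lower call under spike-in scaling had larger falls there, from -0.70 for *Ppp1cb* to -1.25 for *Ppp1r12c* on the log2 scale, against -0.13 and -0.71 with TMM. All 4 dedicated myosin light chain kinases were higher. *Mylk*, the smooth muscle and nonmuscle kinase, rose from 1.05 ± 0.22 to 40.3 ± 2.11 CPM (SD, n = 3; log2 fold change 5.27 ± 0.09 SE, edgeR adjusted p = 1.4e-29). *Mylk2*, the skeletal muscle kinase that acts on *Mylpf*, went from 4.25 ± 0.28 to 33.5 ± 0.91 CPM (2.98 ± 0.07, edgeR adjusted p = 1.4e-26). Per length *Mylk2* was the higher of the pair at D5, with 35.2 ± 1.19 TPM against 11.1 ± 0.74 TPM for *Mylk*. *Mylk3*, the cardiac kinase, had 1 to 4 counts per D0 library and 60 to 64 per D5 library (5.14 ± 0.32, edgeR adjusted p = 2.3e-15). *Mylk4* rose by 1.59 ± 0.06 (edgeR adjusted p = 1.9e-21), but with spike-in scaling the change was 1.02 and was not called (adjusted p = 0.12).

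Among the other genes of that list past 1 on the log2 scale, *Cit*, the citron kinase of cytokinesis, fell by 2.04 ± 0.04. Proliferation markers fell beside it, from a summed 1638 to 1655 CPM to 49.96 to 57.5 CPM, and their part in that fall was not tested. *Ppp1r12b*, a targeting subunit of myosin phosphatase found in striated muscle, rose by 2.03 ± 0.05. Inhibitors of the phosphatase went both ways, with *Ppp1r14c* higher by 4.93 ± 0.06 and *Ppp1r14b* lower (-1.08 ± 0.04).

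Genes whose log2 CPM profile over the 6 libraries lay closest to that of *Myl1*, by Euclidean distance, were *Acta1* (0.69), the skeletal actin, and the troponins T *Tnnt3* (0.93) and *Tnnt2* (0.93). Those closest to *Myl9* were *Itpkb* (0.22), *Noct* (0.23) and *Gm4204* (0.25). Distance over 2 groups reflects mainly the pair of group levels.

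Scaling set the size of every fold change. With spike-in scaling the median of all genes tested moved to -0.58, and with no scaling to -0.68, against 0.00 with TMM. Without scaling every library was given the same size, so the greater depth of the D0 libraries stayed in those values. Spike-in shares differed between the D5 libraries (1.20, 0.72 and 2.09%). Under spike-in scaling the SE of the 9 members tested was 0.52 to 0.94, against 0.03 to 0.27 with TMM. The share of called genes that were lower was 49.2% with TMM, 67.4% with spike-ins and 76.6% without scaling. Each of the 9 members tested kept its direction and its call against 0 under both scalings, and no test was run against the shifted median. *Myl12a* had the largest adjusted p of these, 0.017 with spike-ins (edgeR, log2 fold change -1.49).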

How the data were processed

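Total RNA from C2C12 cells (3 D0 and 3 D5 libraries) was sequenced by the authors on an Illumina platform. The authors deposited raw featureCounts gene counts, 1 table per library, with GENCODE identifiers and ERCC rows. The labels name the mm10 build, TopHat2 and DESeq2 1.6.3, and the paper's methods name HISAT2, so the aligner of these counts is uncertain. A row without a gene name equals the sum of all others (50% of each column) and was left out, as were ERCC rows.

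Members and lists were chosen with earlier results of these data known. Counts were fitted in edgeR 4.0.16 (R 4.3.3; TMM, filterByExpr, glmQLFit and glmQLFTest, group only, Benjamini-Hochberg over all genes tested, threshold 0.05), and the code was tested on simulated data. The SE is the absolute log2 fold change over the root of F. TPM used exonic lengths from GENCODE M21 for 99.9% of gene rows. Shares were compared by exact two-sided permutation. A maximum of 3 counts per library was taken as undetected. Libraries held 25449759 or more gene counts, and genes with few counts (*Myl3*, and *Myl2* and *Mylk3* at D0) carry a large counting error. Genes named were all members, listed genes called with an absolute log2 fold change of 1 or more, and the 3 nearest profiles of *Myl1* and *Myl9* (prior count 2); *Mylf-ps*, *Gm5526*, *AC154187.2*, *Myom1*, the genes below that size and the markers were named after their values were seen. Alternatives were DESeq2 1.42.0, other scalings, filters and lengths, each library left out, and a replicate block. Replicates of a group differed by more than sampling noise (chi-square per degree of freedom 2.16 to 3.45). Protein sequences were not used here, and not every shared sequence is printed.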

Additional observations from a re-analysis of the deposited data

How the results depend on the processing

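Each tested member kept its direction and stayed called in all alternatives that could fit it (125 combinations of 9 genes with 14 settings). *Myl2* dropped out where 10 counts were required in every library. With a replicate block the counts of members stayed at 5 higher and 4 lower; correlations of same-numbered libraries were 0.03, 0.06 and 0.03, each library correlated best with its own number, and the block moved the count of all genes called from 13510 to 13558. Leaving out each library in turn gave 5 and 4 again, with *Myl2* from 10.40 to 12.46 on the log2 scale and *Myl12a* from -0.96 to -0.91. With spike-in scaling 5560 genes were called, and phosphorylation genes called higher went from 7 to 5 and those called lower from 8 to 2, with larger falls in the 6 that lost the call (-0.70 to -1.25 on the log2 scale). With 10 counts required in every library 3 heavy chains were called higher instead of 9, since genes near 0 at D0 left the test.

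Shares moved with gene length. By longest transcript the striated essential share was 7.69% at D0 and 93.2% at D5, the regulatory share 2.63% and 96.8%, and the ratio 1.13 and 0.729. By counts without length, the essential share was 3.11% at D0, the regulatory share 1.10% and 92.5%, and the ratio 1.76 and 1.25. Further choices were made after seeing the data. By coding length the values were 2.63% and 89.7%, 1.12% and 92.6%, and 1.90 and 1.12. By bases that no other gene overlaps, the regulatory share was 2.53% and 96.7% and the D0 ratio 1.38. With *Mylf-ps* added, the essential share was 5.08% and 91.5% and the D5 ratio 0.633. Leaving out 1 library gave essential shares of 4.33 to 4.54% and 90.3 to 90.7%, regulatory shares of 3.00 to 3.16% and 97.2 to 97.4%, and ratios of 1.63 to 1.71 and 0.561 to 0.583. Depth limits *Myl3*, with at most 5 counts.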
